A study of Homo sapiens with 12 samples.

Results

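SAHA and compound 1, the 2 single-target compounds of the study, were compared gene by gene at the same dose and time in MDA-MB-231 cells, an established human line of triple-negative breast cancer. The cells were treated for 48 h with 2.5 µM SAHA, with 2.5 µM compound 1 or with the solvent DMSO (Ctrl), and total RNA was sequenced in 3 libraries per group. SAHA is vorinostat, a hydroxamic acid that inhibits histone deacetylases (HDACs). The labels give compound 1 by its number only and describe it, like SAHA, as acting on a single target, in a study of compounds directed at HDACs and G-quadruplexes. A G-quadruplex is a 4-stranded structure that guanine-rich DNA or RNA can form. The members are the genes present in both of the authors' deposited comparison tables, SAHA against Ctrl and compound 1 against Ctrl: 18514 of the 27146 genes of the series. For each gene the log2 fold change with compound 1 was subtracted from that with SAHA. A positive difference thus means a higher level with SAHA than with compound 1. This is the only pair of compounds compared here. All groups are of 1 cell line, 1 dose and 1 time.

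HDACs remove acetyl groups from lysines of histone tails and of other proteins. Their inhibition raises histone acetylation, and inhibitors such as SAHA are known in cancer cells for raising some silent genes while lowering genes of cell division. G-quadruplexes are found in many promoters, at telomeres and in ribosomal DNA, and small molecules that bind them are studied as inhibitors of transcription and telomere upkeep.

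The tables hold no values per library, so the values below are group means. The mean normalized count of a gene in each group, called its level here, was computed from the deposited mean count and fold change. The log2 ratio of the Ctrl levels from the 2 tables had a standard deviation of 0.00335 over 12090 genes with a mean level of at least 50, against 1.86 for the Ctrl level itself across those genes. The same Ctrl libraries were therefore taken to enter both tables. A gene entered the SAHA table from a mean count of 2.44 and the compound 1 table from 0.145, and 8612 genes of the compound 1 table, with a median mean count of 0.336, had no partner in the SAHA table. The defining genes of the line were abundant, with mean counts of 20315 for VIM, 20436 for AXL and 8129 for CD44 in the authors' deposited compound 1 table. Of 9 markers listed as near absent in the line 5 were in both tables. In that authors' deposited table ESR1 and PGR stood at 0.489 and 0.317, while XBP1 stood at 1098, ERBB3 at 173, EPCAM at 171 and GATA3 at 81.8. Of the markers of other cell types 7 of 11 endothelial, 5 of 14 haematopoietic and 5 of 11 fibroblast genes were in both tables. The highest were EGFL7 at 1854 and ESAM at 1663, LAPTM5 at 410, and S100A4, also a gene of the line itself, at 4250 and PDGFRB at 373 in that authors' deposited table. PTPRC, CD3E, MS4A1, PDGFRA and DCN were in neither table.

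SAHA and compound 1 differed at 197 genes, 1.06% of the genes tested. The level was higher with SAHA at 108 genes (0.583%) and lower at 89 (0.481%), at an adjusted p under 0.05. The test was a two-sided z test on the difference over its standard error, with Benjamini-Hochberg adjustment over all 18514 genes. The standard error added the squared errors of both deposited fold changes, which counts the error of the shared Ctrl libraries although Ctrl cancels from the difference. An error for the SAHA and compound 1 libraries alone was also rebuilt from the deposited standard errors, which cover Ctrl scatter too. It assumed that the Ctrl and treated libraries of a comparison share 1 dispersion, the spread of counts, per gene. With this error 555 genes (3%) were higher and 508 (2.74%) lower, 5.74% in all. This test is called the test without Ctrl below. Under either test the p-values reflect how much these libraries vary, which can include technical variation, since the labels call them biological replicates and say no more.

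Among the called genes, those higher with SAHA differed by more than those lower. Their median difference was 2.46 on the log2 scale, with a range of 1.30 to 6.19, and 84 of the 108 differed at least 4-fold. Among the 89 lower genes the median difference was -1.60, with a range of -1.05 to -5.03, and 22 differed at least 4-fold. The higher genes had low levels in Ctrl, with a median of 48.6 and 11 of them under 10. The lower genes had a median Ctrl level of 547, and 0 of them were under 10. The median over all genes tested was 144. Genes with low counts have large standard errors, so only large differences can pass there. A gene nearly silent in Ctrl can hardly be called lower. The sizes and levels of the called genes thus depend on the test and are a description only. Most of each difference lay on the side of SAHA. Among the higher genes the median fold change against Ctrl was 2.30 with SAHA and -0.11 with compound 1, and compound 1 values ran from -1.06 to 0.99. Among the lower genes the medians were -1.65 and -0.04. Over all genes with a mean level of at least 50, fold changes against Ctrl had a standard deviation of 0.56 with SAHA and 0.18 with compound 1. In the authors' DESeq2 test, on these 18514 genes, SAHA raised 826 (4.46%) and lowered 560 (3.02%), and compound 1 changed 0 (0%), with 47 at an unadjusted p under 0.05. With no effect, calibrated p-values would put a share of about 0.05 of the genes under that limit, and 47 is far fewer. The compound 1 statistic had a standard deviation of 0.52 at mean levels of at least 50, narrower than such a test assumes. The 0 is thus not a calibrated measure of no change, and the reason was not tested.

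**Figure D1:**
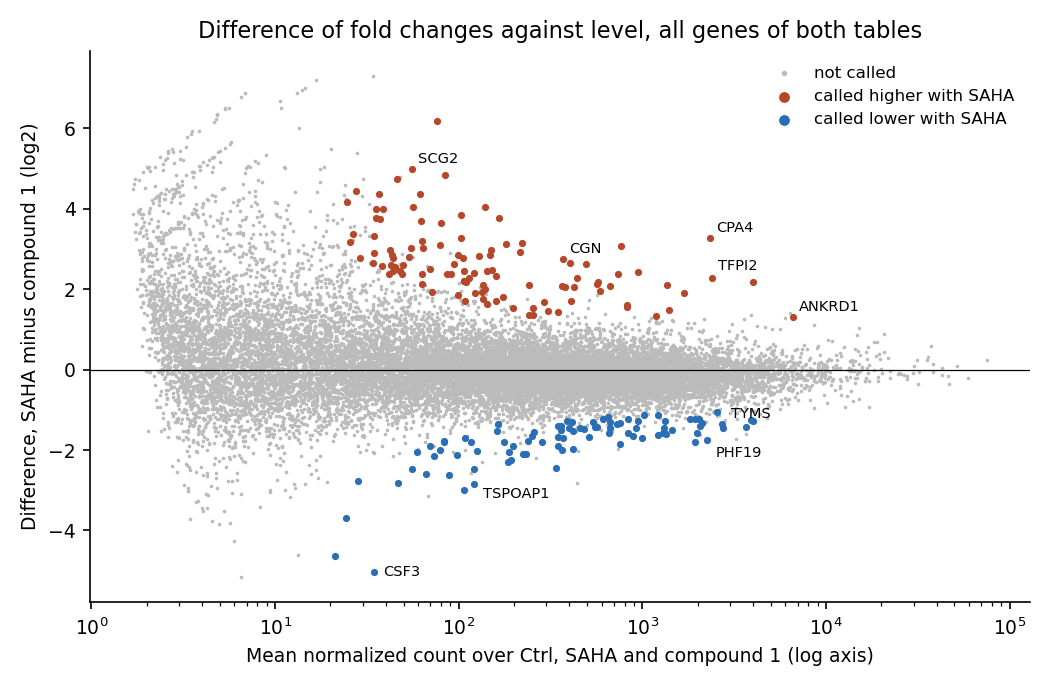
Difference of the log2 fold changes against Ctrl, SAHA minus compound 1 (vertical axis), against the mean normalized count over the 3 groups (horizontal log axis), 1 point per gene. The 108 genes called higher with SAHA (red) reach 6.19 and lie mostly at lower levels than the 89 called lower (blue), the lowest of which, CSF3, stands at -5.03.

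CPA4, a carboxypeptidase known for its induction by HDAC inhibitors, had the largest statistic of all genes. Its level was 645 in Ctrl, 5730.2 with SAHA and 596 with compound 1. Only the SAHA group stood apart, and the difference was 3.26 (95% interval 2.64 to 3.89), with an adjusted p of 3.64e-20. CPA4 is at chromosome 7, 130293134 to 130324180 on GRCh38. The 250 bases before its start in RefSeq (GRCh38.p14, chr7:130292911-130293160, plus strand) are shown because this gene gave the clearest difference. That RefSeq start differs from the first base of the gene position given above, which lies inside the window. Capitals mark a TATA-like stretch. There TATAAA reads on the plus strand 23 to 28 bases before the RefSeq start and again, overlapping, on the minus strand.
CPA4: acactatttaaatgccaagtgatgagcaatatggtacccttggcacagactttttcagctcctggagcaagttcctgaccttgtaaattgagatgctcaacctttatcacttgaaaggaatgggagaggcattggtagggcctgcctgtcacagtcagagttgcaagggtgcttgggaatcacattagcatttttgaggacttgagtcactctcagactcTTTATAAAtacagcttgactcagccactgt
TATAAA was in 6.46% of the promoter windows of the genes tested, which run from 250 bases before to 50 after the start, searched on both strands.

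Other secreted and surface proteins followed among the genes higher with SAHA. TFPI2, a Kunitz-type protease inhibitor of the extracellular matrix at chromosome 7, 93885396 to 93890991, stood at 951 in Ctrl, 5131 with SAHA and 1055 with compound 1, a difference of 2.28 (95% interval 1.64 to 2.93), with an adjusted p of 3.65e-08. It lies within GNGT1 on the opposite strand, which was also higher, so reads of the pair may not be told apart. NPPB, which encodes the B-type natriuretic peptide, stood at 251 in Ctrl, 1837 with SAHA and 218 with compound 1, a difference of 3.07 (95% interval 2.15 to 4.0). PCDH1, a protocadherin of cell contacts, had levels of 234, 1215 and 269 in Ctrl, SAHA and compound 1 and a difference of 2.18 (95% interval 1.47 to 2.89). In all of these the compound 1 level was close to that of Ctrl and the SAHA level several times higher. RGS4, which speeds up GTP hydrolysis by G protein alpha subunits, had levels of 81.6, 525 and 58.9 and a difference of 3.16 (95% interval 2.23 to 4.09). LMCD1, a LIM domain cofactor of transcription, differed by 2.66 (95% interval 1.80 to 3.51), and TRNP1, a nuclear protein, by 2.38 (95% interval 1.59 to 3.18). The adjusted p of these 6 genes lay between 3.65e-08 and 6.03e-06. A further 4 of the 12 highest statistics were pregnancy-specific glycoprotein genes.

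**Figure D2:**
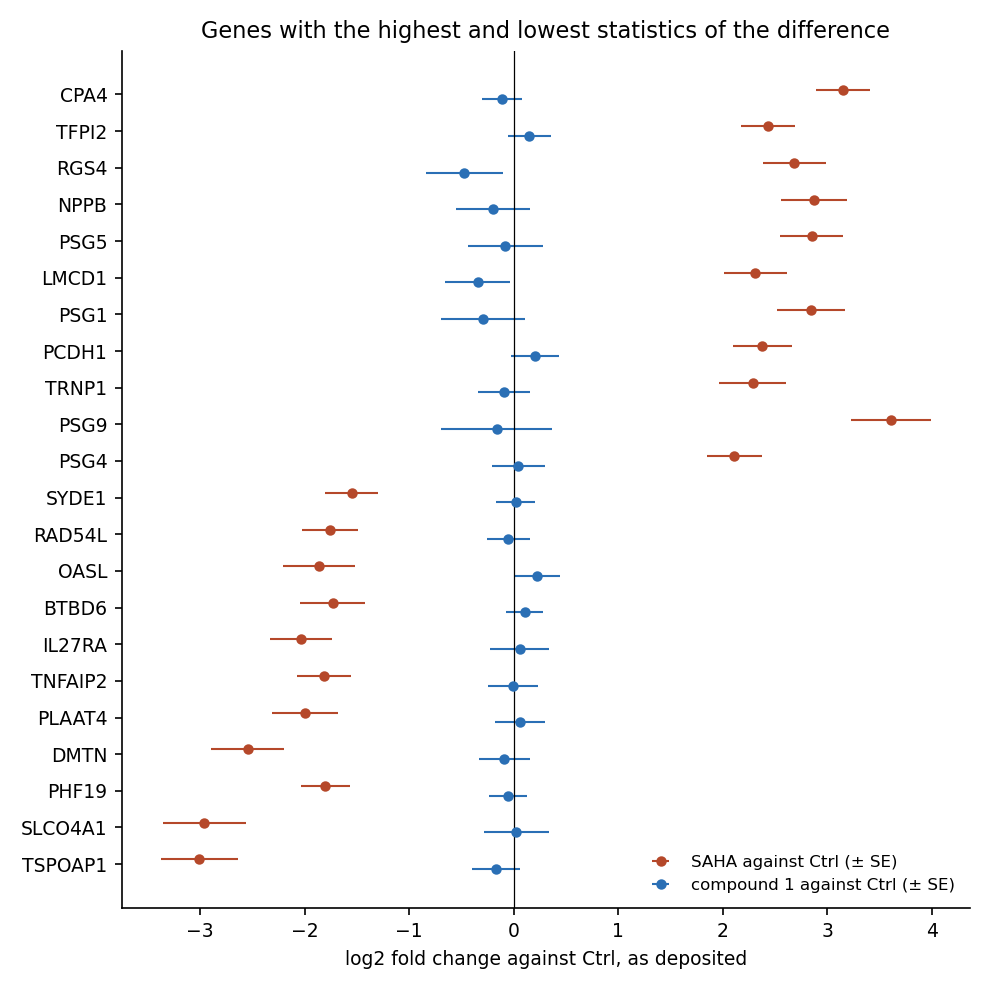
Log2 fold change against Ctrl (horizontal axis) with SAHA (red) and with compound 1 (blue) in the authors' deposited tables, for 11 of the 12 genes with the highest and 11 of the 12 with the lowest statistic of the difference; bars are the deposited standard errors. The SAHA values lie beyond 2 or below -1.5, and the compound 1 values run from -0.47 to 0.23.

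The lowest statistics belonged to genes of varied function. TSPOAP1, which binds the mitochondrial translocator protein TSPO and lies at chromosome 17, 58301228 to 58328760, stood at 181 in Ctrl, 22.5 with SAHA and 161 with compound 1. Its difference was -2.84 (95% interval -3.69 to -1.98), with an adjusted p of 2.87e-07. SLCO4A1, an organic anion transporter, had levels of 149.9, 19.3 and 152 in Ctrl, SAHA and compound 1 and a difference of -2.98 (95% interval -3.97 to -2.0). It overlaps SLCO4A1-AS1, which was also lower (difference -2.47), and the sources used here do not say if counting used strand. PHF19, a Polycomb-like partner of the histone methyltransferase complex PRC2, stood at 3001 in Ctrl, 860.0 with SAHA and 2891 with compound 1, a difference of -1.75 (95% interval -2.34 to -1.16). DMTN, the actin-bundling protein dematin, differed by -2.46 (95% interval -3.29 to -1.62). PLAAT4, a phospholipid-modifying enzyme, differed by -2.06 (95% interval -2.83 to -1.29), the cytokine receptor gene IL27RA by -2.09 (95% interval -2.89 to -1.29), BTBD6 by -1.84 (95% interval -2.54 to -1.13) and the GTPase-activating gene SYDE1 by -1.57 (95% interval -2.18 to -0.95). The adjusted p of these 8 genes lay between 2.87e-07 and 0.000344. In each of them the SAHA level was below both others, while the compound 1 level lay close to that of Ctrl.

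The pregnancy-specific glycoproteins are secreted placental proteins of the immunoglobulin superfamily, encoded side by side on chromosome 19. All 10 listed genes were measured, and 7 were higher with SAHA than with compound 1 and 0 lower, where 0.583% of all genes were higher. The test without Ctrl called 9, where 3% of all genes were higher. PSG5 had levels of 70.4 in Ctrl, 507 with SAHA and 66.6 with compound 1, a difference of 2.93 (95% interval 2.01 to 3.85) and an adjusted p of 1.26e-06. PSG1 stood at 60.3, 433 and 49.2 in Ctrl, SAHA and compound 1, PSG9 at 35.4, 432 and 31.7 and PSG4 at 179, 772 and 184. Their differences were 3.13 (95% interval 2.12 to 4.15), 3.78 (95% interval 2.49 to 5.06) and 2.07 (95% interval 1.35 to 2.78). In these 4 genes the SAHA level was at least 4 times either of the others, and the Ctrl and compound 1 levels lay close together. PSG3, PSG7 and PSG8 were also higher, by 3.98, 4.05 and 2.98, with adjusted p between 0.00692 and 0.0204. PSG2, PSG6 and PSG11 differed by 4.25 (95% interval 1.52 to 6.99), 2.62 (95% interval 0.93 to 4.30) and 3.37 (95% interval -0.55 to 7.29) and did not pass. The median over the 10 genes was 3.25, against -0.03 over all genes tested. The genes are near-identical copies, so how reads divide among them is uncertain.

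RefSeq promoter windows were given for 3 of the genes that passed. They are shown to let the copies be compared: GRCh38.p14, minus strand, chr19:42740482-42740731 for PSG3, chr19:43205639-43205888 for PSG4 and chr19:43186537-43186786 for PSG5. Capitals mark the longest run of bases that all 3 share, 54 bases long.
PSG3: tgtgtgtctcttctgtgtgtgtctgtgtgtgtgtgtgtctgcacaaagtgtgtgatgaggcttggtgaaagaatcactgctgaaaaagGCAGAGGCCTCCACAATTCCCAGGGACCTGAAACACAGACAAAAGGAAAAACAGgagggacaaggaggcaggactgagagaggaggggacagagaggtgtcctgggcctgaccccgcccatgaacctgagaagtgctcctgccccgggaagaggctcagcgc
PSG4: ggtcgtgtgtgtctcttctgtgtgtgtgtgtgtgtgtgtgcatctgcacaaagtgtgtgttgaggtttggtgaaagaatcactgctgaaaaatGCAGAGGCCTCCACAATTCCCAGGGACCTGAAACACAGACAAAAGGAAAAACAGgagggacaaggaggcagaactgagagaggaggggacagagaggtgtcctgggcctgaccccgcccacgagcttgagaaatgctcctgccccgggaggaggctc
PSG5: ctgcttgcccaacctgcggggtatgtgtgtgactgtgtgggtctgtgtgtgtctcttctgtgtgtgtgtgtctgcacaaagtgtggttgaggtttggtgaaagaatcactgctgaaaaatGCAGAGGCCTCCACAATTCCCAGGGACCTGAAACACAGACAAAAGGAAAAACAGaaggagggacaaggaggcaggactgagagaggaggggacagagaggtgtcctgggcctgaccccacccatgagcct
Aligned with gaps, PSG3 and PSG4 had the same base at 95.1% of 245 aligned positions, PSG3 and PSG5 at 96.3% of 214, and PSG4 and PSG5 at 95% of 219. The shared run ends 109 bases before the start in PSG3, 104 in PSG4 and 77 in PSG5. Of the 92 protein-coding genes called higher, 10 (10.9%) had a protein-coding neighbour that was also called higher, against 1.34% of the 13498 coding genes tested with such a neighbour. Those were PSG1, PSG3, PSG4, PSG5, PSG8 and PSG9, SYN2 with TIMP4, and GNGT1 with TFPI2. TIMP4 lies within SYN2 and TFPI2 within GNGT1, on the opposite strand, and the sources used here do not say if counting used strand. Of the 83 coding genes called lower 4 (4.82%) had a lower neighbour, TYMS with ENOSF1 and SRRM5 with ZNF428, against 1.22% of coding genes tested. The genes of both lower pairs overlap as well.

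Among genes widely raised by HDAC inhibitors CPA4 was the only one that passed. Of 26 measured members of that list, 1 was higher with SAHA and 0 lower, where 0.583% of all genes were higher. The median difference was 0.24, with medians against Ctrl of 0.56 for SAHA and 0.08 for compound 1. The test without Ctrl called 4 higher and 0 lower: CPA4, the matricellular gene CCN2, the chaperone gene CLU and the receptor gene TGFBR2. Over all genes that test called 3% higher. CCN2 stood at 4573 in Ctrl, 10483 with SAHA and 3925 with compound 1, a difference of 1.42 (95% interval 0.59 to 2.24) with an adjusted p of 0.0669 in the main test. CLU stood at 1089, 2298 and 973 in the same order and TGFBR2 at 984, 2400.3 and 1037. CDKN1A, the cyclin-dependent kinase inhibitor p21, stood at 1929 in Ctrl, 4609 with SAHA and 2348 with compound 1. Its difference of 0.97 (95% interval -0.21 to 2.16) did not pass (adjusted p = 0.858), nor did it in the test without Ctrl. Removing the trend of the difference on level raised the count of higher members to 3.

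Neuronal genes, many of which are held silent outside the nervous system by the repressor REST and its HDAC-containing partners, were measured in part. Of 30 listed genes 12 were in both tables, and 8 of these had a Ctrl level under 10. A gene that is nearly silent in Ctrl entered the SAHA table only if SAHA raised its count, so the members measured are not a neutral choice. Among the 12, 3 were higher with SAHA and 0 lower, beside 0.583% higher over all genes; given how members entered, the count is a description only. SCG2, a secretory granule protein, stood at 4.15 in Ctrl, 158 with SAHA and 4.82 with compound 1, a difference of 4.99 (95% interval 2.55 to 7.43). MAP2, a microtubule-associated protein of dendrites, stood at 7.48 in Ctrl, 168 with SAHA and 8.22 with compound 1, a difference of 4.37 (95% interval 2.39 to 6.35). DCLK1, a doublecortin-like kinase, stood at 4.52 in Ctrl, 99.4 with SAHA and 7.28 with compound 1, a difference of 3.76 (95% interval 1.66 to 5.86). With the trend on level removed its adjusted p became 0.0546. In these genes the compound 1 level was in the range of the Ctrl level and SAHA was many times either; the intervals are wide where the lower counts are small. The test without Ctrl called 5, with HPCAL4 and the synaptic vesicle gene SYP added, beside 3% higher over all genes. SYP stood at 3.84, 45.3 and 6.04 and HPCAL4 at 1.05, 101 and 0.649 in Ctrl, SAHA and compound 1.

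Genes of epithelial junctions, matrix and adhesion had single members that differed. In the epithelial junction and keratin list 2 of 30 were higher with SAHA and 0 lower, with a median of 0.53; the test without Ctrl called 6 higher and 1 lower. Over all genes 0.583% were higher, and 3% without Ctrl, and the same shares apply to the lists with 1 called gene that follow. CGN, the tight junction protein cingulin, stood at 81.8 in Ctrl, 889.6 with SAHA and 132 with compound 1, a difference of 2.75 (95% interval 1.76 to 3.74). Its fold change with compound 1 was 0.69 in the authors' deposited table, where its error was 0.36. KRT81, a hair keratin of a family with similar sequences, stood at 707, 2734 and 631 in Ctrl, SAHA and compound 1. TIMP4, an inhibitor of matrix metalloproteinases, differed by 2.40 (95% interval 1.34 to 3.46), the only one of 26 pericellular proteolysis genes to pass; it lies within SYN2, which was also higher, so their reads may not be told apart. ITGA7, a laminin-binding integrin subunit, differed by 3.02 (95% interval 1.66 to 4.38), 1 of 18 integrin genes. COL6A3, a collagen VI chain, was the 1 of 34 mesenchymal genes called, at 135 in Ctrl, 464 with SAHA and 161 with compound 1. ANKRD1, a target of the YAP coactivator, was the 1 of 26 actin and YAP target genes called, at 4330.5 in Ctrl, 11019 with SAHA and 4469.6 with compound 1. SERPINB7 was the 1 of 6 clade B serpins called, with levels of 4.14, 129 and 4.74. CD14, a monocyte co-receptor for lipopolysaccharide, was the 1 of 5 measured haematopoietic markers called, at 28.2 in Ctrl, 99.3 with SAHA and 18.9 with compound 1. The other 4 were not called, and the summed level of the 5 was 646 in Ctrl, 584 with SAHA and 557 with compound 1.

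Genes of G2 and mitosis stood lower with SAHA than with compound 1. All 50 measured members had a negative difference, from -1.83 to -0.40, with a median of -1.03, against -0.03 over all genes tested. Of them 5 were called lower and 0 higher, where 0.481% of all genes were lower. The test without Ctrl called 23 lower and 0 higher, where 2.74% of all genes were lower. Their median against Ctrl was -0.98 with SAHA and -0.01 with compound 1. KIF20A, a kinesin of cytokinesis, stood at 1831 in Ctrl, 549 with SAHA and 1667 with compound 1, a difference of -1.60 (95% interval -2.35 to -0.86) with an adjusted p of 0.00681. CDCA8, the chromosomal passenger subunit borealin, stood at 1664, 678 and 1635 in the same order, a difference of -1.27 (95% interval -1.92 to -0.62). CCNB2, a mitotic cyclin, stood at 1045, 430.3 and 1015, a difference of -1.24 (95% interval -1.88 to -0.60). In these 3 genes compound 1 lay next to Ctrl, and SAHA well below both. The other two were named after their values were seen: ESPL1, the protease separase, differed by -1.46 (95% interval -2.21 to -0.70), and FOXM1, a transcription factor of G2 genes, by -1.32 (95% interval -2.0 to -0.63). PLK1 and CCNB1 came next, at -1.11 and -1.07, each with an adjusted p of 0.0509. The members have mid to high levels, where the difference over all genes lay slightly below 0 (median -0.09 at a mean level of at least 50). With the trend on level removed 1 of the 50 was called, KIF20A, and the adjusted p of CDCA8 and CCNB2 was 0.0608 and 0.0632.

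Promoters of mitotic genes are known for a CCAAT box and, near the start, a CHR element. The motifs searched were CCAAT, and TTTGAA or TTCGAA for CHR, each on both strands. Windows in RefSeq were given for 42 of the 50 genes. Of their 53 windows 73.6% held CCAAT, 69.8% held CHR and 56.6% both, against 34.2%, 11.9% and 4.76% of the 16802 windows of all genes tested. In the DNA replication list 56.4% of windows held CCAAT and 5.45% CHR. The windows of KIF20A, CDCA8 and CCNB2 are shown with these motifs in capitals (GRCh38.p14, plus strand, chr5:138178862-138179111, chr1:37692266-37692515 and chr15:59104896-59105145, the 250 bases before the start).
KIF20A: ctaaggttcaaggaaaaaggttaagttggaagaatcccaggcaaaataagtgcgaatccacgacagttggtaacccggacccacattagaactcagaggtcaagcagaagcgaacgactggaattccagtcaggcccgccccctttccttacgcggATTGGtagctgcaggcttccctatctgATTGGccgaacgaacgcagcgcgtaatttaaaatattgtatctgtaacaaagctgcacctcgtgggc
CDCA8: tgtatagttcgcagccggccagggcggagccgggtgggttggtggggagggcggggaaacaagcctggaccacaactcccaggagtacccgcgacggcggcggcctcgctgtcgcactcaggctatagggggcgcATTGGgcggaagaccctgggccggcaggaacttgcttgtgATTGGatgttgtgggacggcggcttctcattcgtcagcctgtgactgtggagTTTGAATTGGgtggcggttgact
CCNB2: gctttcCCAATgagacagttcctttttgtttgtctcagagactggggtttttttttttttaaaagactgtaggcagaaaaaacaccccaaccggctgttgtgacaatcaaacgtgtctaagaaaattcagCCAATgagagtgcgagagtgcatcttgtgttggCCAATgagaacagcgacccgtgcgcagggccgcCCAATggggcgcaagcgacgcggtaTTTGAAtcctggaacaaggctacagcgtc
CCAAT reads as ATTGG where it lies on the minus strand. CHR was found 18 to 23 bases before the start in CDCA8, where its last base is shared with a CCAAT box, and 24 to 29 bases before in CCNB2. In KIF20A, the gene with the clearest difference of the group, CCAAT was found at 2 places. Neither of the CHR sequences searched was in its window, and other forms of the element were not searched. Over the 100 windows of all genes called lower, 31% held CCAAT and 18% CHR. A match is a description of the letters only.

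**Figure D3:**
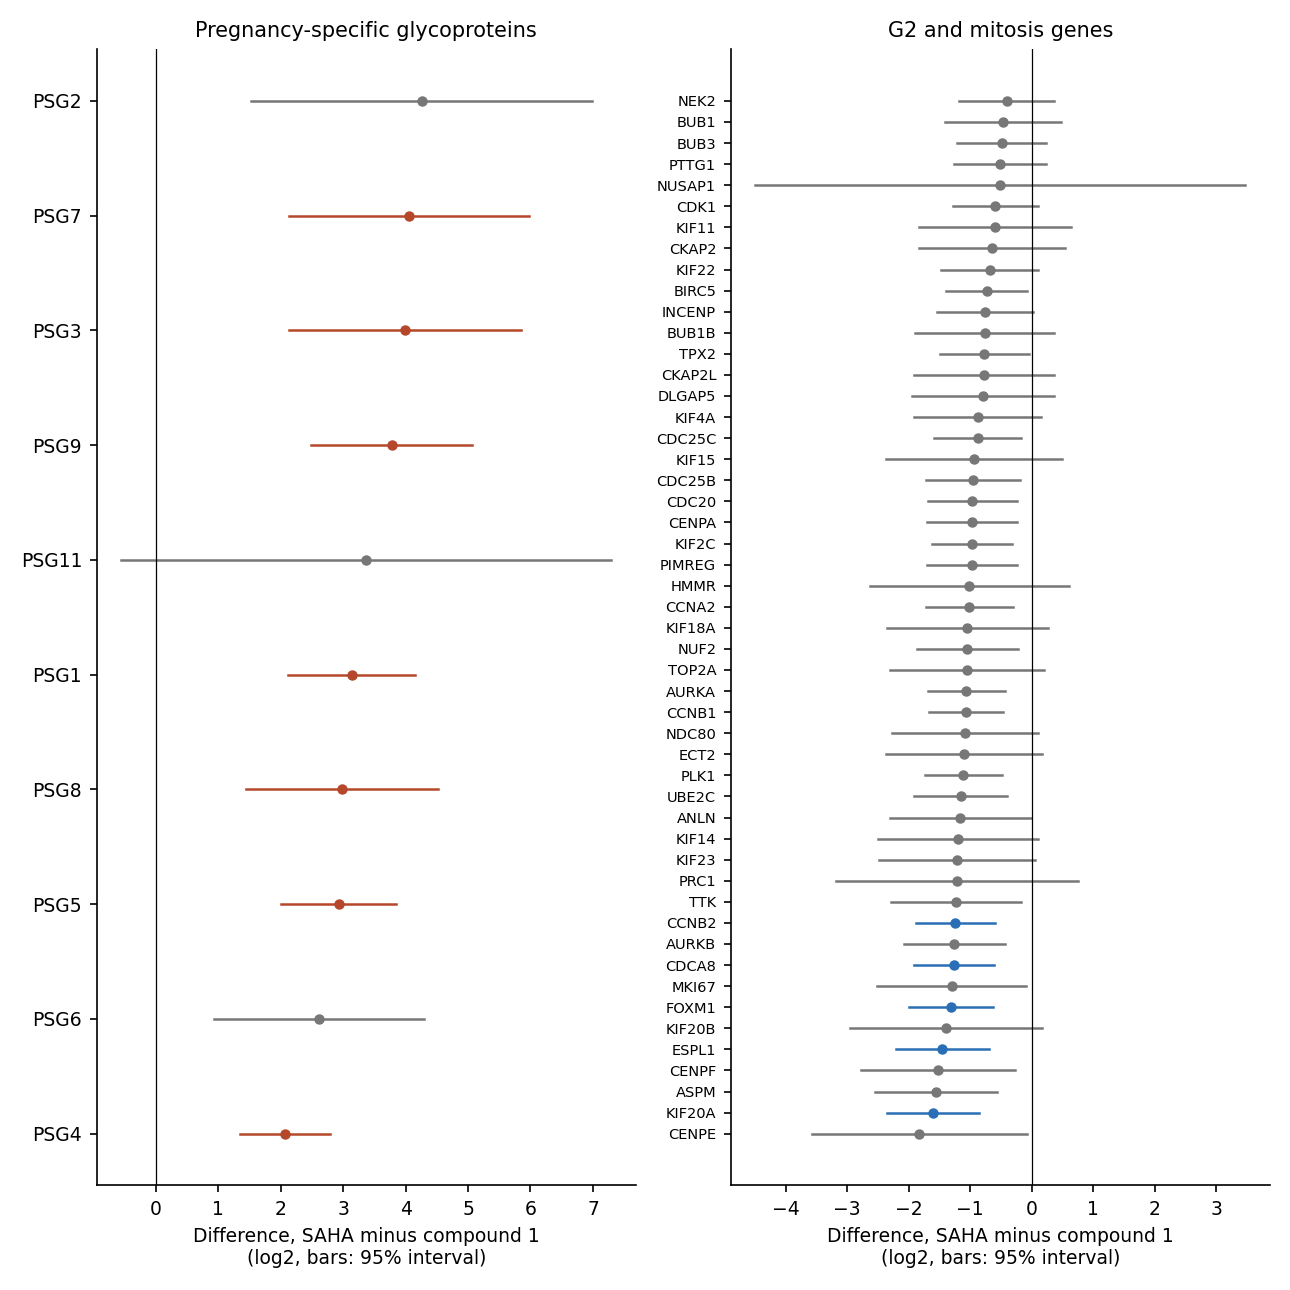
Difference of the log2 fold changes, SAHA minus compound 1, with its 95% interval for the 10 pregnancy-specific glycoprotein genes (left) and the 50 G2 and mitosis genes (right); red is called higher with SAHA, blue called lower, grey not called. The 10 genes on the left have values of 2.07 to 4.25 and the 50 on the right values of -1.83 to -0.40.

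Genes of DNA replication, recombination and histones had medians below 0, with 1 member called lower and 0 higher in each list. Over all genes 0.481% were lower, and 2.74% without Ctrl. The median difference over genes with a mean level of at least 50 was itself -0.09. Of 47 replication genes the one called was TYMS, thymidylate synthase, at 3489 in Ctrl, 1316 with SAHA and 3355 with compound 1, a difference of -1.35 (95% interval -2.02 to -0.68). TYMS overlaps TYMSOS and ENOSF1, which were lower by similar amounts (-1.31 and -1.23), so reads of the 3 genes may not be told apart. The median of the replication list was -0.50, and the test without Ctrl called 8 lower. Of 35 homologous recombination and Fanconi genes RAD54L, a recombination motor protein, was the one called, at 491 in Ctrl, 145 with SAHA and 474 with compound 1, a difference of -1.71 (95% interval -2.37 to -1.04), and the list median was -0.48. Of 17 replication-dependent histone genes H2BC11 was called, at 87.4 in Ctrl, 17.8 with SAHA and 73.1 with compound 1, and the list median was -0.34. Histone genes of this family resemble each other and lack poly(A) tails, so their values are uncertain.

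NF-kB and inflammatory genes had medians on opposite sides of Ctrl with the 2 compounds. The median over 28 measured members was -0.34 with SAHA and 0.37 with compound 1, and the median difference was -0.86, with 5 of 28 above 0. Of them 2 were called lower and 0 higher, where 0.481% of all genes were lower. The test without Ctrl called 6 lower and 0 higher, where 2.74% of all genes were lower. CSF3, the granulocyte colony-stimulating factor, stood at 24.2 in Ctrl, 2.37 with SAHA and 77.6 with compound 1. Its difference of -5.03 (95% interval -7.42 to -2.65) was the lowest of all called genes, with an adjusted p of 0.00834. The fold changes behind it were -3.35 with SAHA and 1.68 with compound 1 in the authors' deposited tables, with standard errors of 0.84 and 0.88. In TNFAIP2, a TNF-induced gene, compound 1 lay next to Ctrl: its level was 2558 in Ctrl, 726 with SAHA and 2544 with compound 1, a difference of -1.81 (95% interval -2.50 to -1.12). The 4 genes added by the test without Ctrl were the cytokines CSF2 and LIF, the inhibitor NFKBIA and the subunit gene NFKB1. CSF2 stood at 87.8 in Ctrl, 37.6 with SAHA and 225 with compound 1, a difference of -2.58 (95% interval -4.18 to -0.99) with an adjusted p of 0.105 in the main test. LIF stood at 858, 607 and 1380.4 in the same order and NFKBIA at 1483, 799 and 1685. IL6 stood at 479, 104 and 734, but its interval was wide, -2.83 (95% interval -5.83 to 0.17). Other members were above Ctrl with both compounds: IL1A stood at 79.0 in Ctrl, 299 with SAHA and 266 with compound 1, with a difference of 0.17 (95% interval -2.60 to 2.94), and PTGS2, cyclooxygenase 2, at 1.76, 13.2 and 10.6. Compound 1 changed none of these genes in the authors' test, and its standard errors for cytokine genes were large, as 1.32 for IL1A and 1.27 for IL6 in the authors' deposited table.

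**Figure D4:**
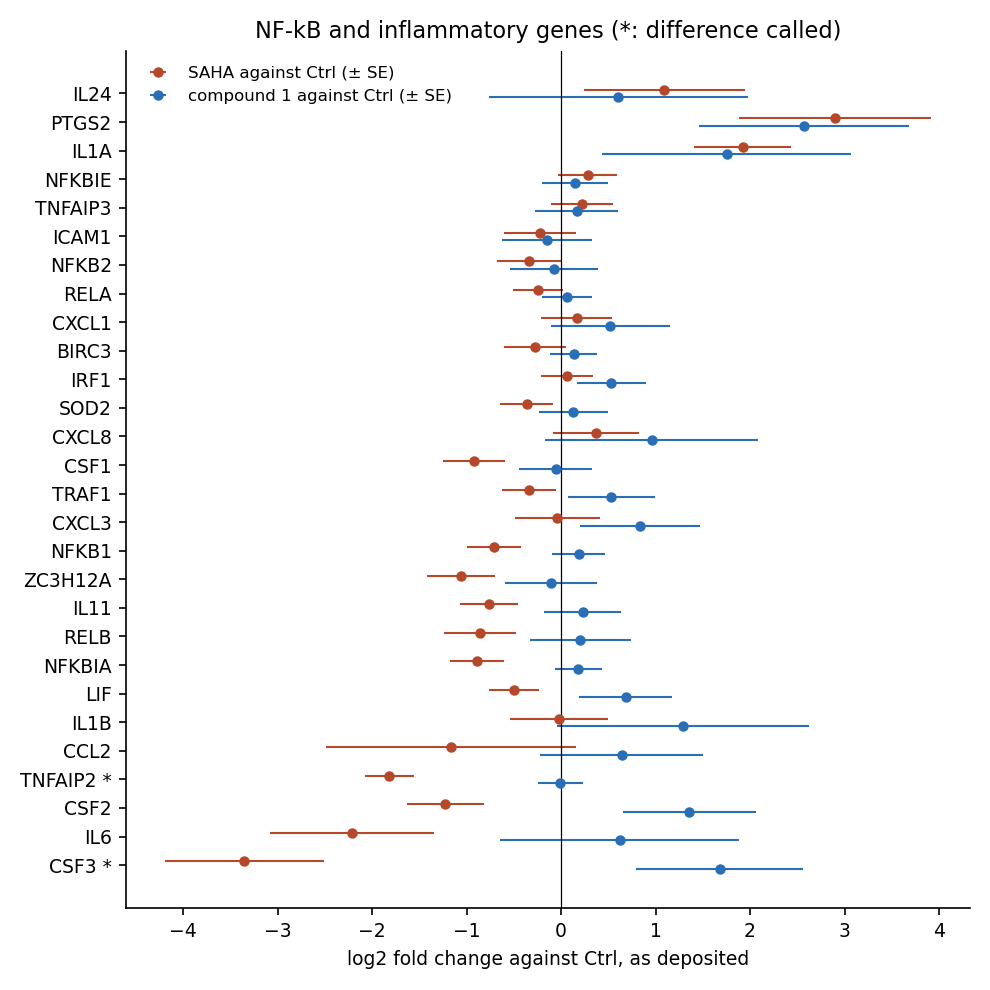
Log2 fold change against Ctrl with SAHA (red) and compound 1 (blue) in the authors' deposited tables, with the deposited standard errors, for the 28 NF-kB and inflammatory genes in both tables, ordered by their difference; an asterisk marks the 2 called. CSF3 and CSF2 lie below 0 with SAHA and above 0 with compound 1, and IL1A and PTGS2 above 0 with both.

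Among 38 interferon response genes 1 was higher with SAHA and 2 lower, where 0.583% and 0.481% of all genes were. The median difference was -0.53, with 28 of 38 below 0. The test without Ctrl called 1 higher and 7 lower, where 3% and 2.74% of all genes were. IFI6, a mitochondrial interferon-induced protein, stood at 175 in Ctrl, 739 with SAHA and 174 with compound 1, a difference of 2.09 (95% interval 1.04 to 3.14). OASL, an oligoadenylate synthetase-like antiviral protein, stood at 287, 78.9 and 335 in Ctrl, SAHA and compound 1, a difference of -2.09 (95% interval -2.89 to -1.28). ISG15, a ubiquitin-like modifier, stood at 1788, 670.0 and 1897, a difference of -1.50 (95% interval -2.27 to -0.74); with the trend on GC content removed its adjusted p became 0.0603. PSMB10, a subunit of the immunoproteasome, was the 1 of 17 genes of MHC class I antigen presentation called, at 106 in Ctrl, 20.9 with SAHA and 93.3 with compound 1, a difference of -2.16 (95% interval -3.17 to -1.15).

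In stress and metabolic lists single genes were lower with SAHA, where 0.481% of all genes were lower. ATF5, a stress-induced transcription factor, was the 1 of 34 unfolded protein and ATF4 response genes called, at 361 in Ctrl, 108 with SAHA and 378 with compound 1. The median of the list against Ctrl was 0.15 with SAHA and 0.18 with compound 1, and the median standard error of a member's difference was 0.48. KEAP1, the inhibitor of the oxidative stress factor NRF2, was the 1 of 25 genes of its list called, at 1534 in Ctrl, 662 with SAHA and 1457 with compound 1. With the trend on level removed the adjusted p was 0.0546 for ATF5 and 0.108 for KEAP1, and after removing the trend on GC content 0.0584 and 0.0920.

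Genes of the enzymes that set histone acetylation were not called in the main test. Over all genes 1.06% were called in either direction. A count of 0 in lists this short is near that share and is a description only. Of the 11 zinc-dependent HDAC genes, the family SAHA inhibits, 0 were called, and the median difference was -0.05. HDAC1 stood at 1583 in Ctrl, 1925 with SAHA and 1787 with compound 1, a difference of 0.11 (95% interval -0.60 to 0.81), and HDAC3 differed by 0.33 (95% interval -0.31 to 0.97). These intervals exclude a difference of 2-fold in either direction. Of 7 sirtuin genes 0 were called, with SIRT7 at 0.48 (95% interval -0.33 to 1.28) and SIRT6 at 0.47 (95% interval -0.48 to 1.41). Of 16 histone acetyltransferase and BET reader genes 0 were called, although 15 had a negative difference and the median was -0.50. BRD2, a BET reader of acetylated histones, stood at 4426 in Ctrl, 3265 with SAHA and 4649 with compound 1, a difference of -0.51 (95% interval -1.15 to 0.13) with an adjusted p of 0.875. The acetyltransferase gene KAT7 was the only one called in the test without Ctrl, at 542 in Ctrl, 324 with SAHA and 621 with compound 1. Over all genes that test called 2.74% lower.

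Genes tied to G-quadruplexes had 1 called member over 2 lists. Of 23 oncogenes and other genes known for promoter G-quadruplexes 1 was called lower, TYMS, and 0 higher. The median was -0.40 and the test without Ctrl called 3 lower. Over all genes 0.481% were lower, and 2.74% without Ctrl. MYC stood at 4341 in Ctrl, 5223 with SAHA and 4909 with compound 1, a difference of 0.09 (95% interval -1.08 to 1.25). BCL2 stood at 95.7, 112 and 110.4 in the same order, a difference of 0.03 (95% interval -1.03 to 1.08). VEGFA stood at 2818 in Ctrl, 1718 with SAHA and 3366 with compound 1, below Ctrl with SAHA and above it with compound 1, but its difference of -0.97 (95% interval -2.18 to 0.23) did not pass (adjusted p = 0.868). TERT, the catalytic subunit of telomerase, stood at 106 in Ctrl, 36.8 with SAHA and 87.1 with compound 1. Its difference of -1.25 (95% interval -2.33 to -0.16) did not pass the main test (adjusted p = 0.523) and passed the test without Ctrl (adjusted p = 0.0360). KIT was not in both tables. Of 31 G-quadruplex helicases and binding proteins 0 were called; 30 had a negative difference and the median was -0.38. NCL, nucleolin, stood at 4373 in Ctrl, 3391 with SAHA and 4796 with compound 1, and HNRNPA1 differed by -0.18 (95% interval -0.86 to 0.50). Of 14 telomerase and shelterin genes 0 were called.

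A G-quadruplex motif, 4 runs of at least 3 G with loops of 1 to 7 bases on either strand, was in 40.6% of the 106 promoter windows of genes called higher and in 46% of the 100 windows of genes called lower, against 33.6% of the windows of all genes tested. The GC box GGGCGG, a binding sequence of the SP1 family, was in 57.5% and 63%, against 64.3%. The genes called lower had a median GC content of 56.5% in their transcripts and the genes called higher 48.0%, against 49.3% over all genes. With the trend of the difference on GC content removed, 112 were called higher and 74 lower.

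Several further lists held 0 called members, where 1.06% of all genes were called in either direction. In lists of these sizes a count of 0 is near that share and is a description only. The 13 mitochondrially encoded genes all had a positive difference, with a median of 0.29, and medians against Ctrl of 0.06 with SAHA and -0.23 with compound 1. MT-CO1 stood at 78746 in Ctrl, 79723 with SAHA and 67214 with compound 1, a difference of 0.25 (95% interval -0.48 to 0.98). These transcripts are also read as a sign of RNA quality, and the part of RNA quality in this difference was not tested. The 65 cytosolic ribosomal protein genes had a median of -0.01 and ran from -0.34 to 0.36, the narrowest range among the lists of 30 or more genes. RPLP0 differed by -0.14 (95% interval -1.0 to 0.73). The 38 ribosome biogenesis genes had a median of -0.17, and the 35 hypoxia and glycolysis genes 0.15, with PKM, pyruvate kinase, at 0.31 (95% interval -0.36 to 0.98). Of 21 genes of the E2F and RB families and G1 cyclins, 5 CDK inhibitors, 30 nuclear oxidative phosphorylation genes, 6 metallothioneins, 21 AP-1 and immediate early genes and 11 genes of the EGFR family and its ligands 0 were called in each. The same held for 6 cancer testis genes, where SPANXB1, one of several near-identical copies whose counts are uncertain, came nearest, at 65.1 in Ctrl, 263 with SAHA and 63.4 with compound 1 (adjusted p = 0.0804). It was called in the test without Ctrl, at an adjusted p of 0.000237, with an error correlation of 0.5 and with the statistic divided by its own spread. Of 16 BCL2 family genes, 22 p53 target genes and 15 heat shock chaperones 0 were called in each. The test without Ctrl called 1 hypoxia and glycolysis gene and 1 EGFR family or ligand gene higher, where 3% of all genes were higher. It called 1 BCL2 family gene lower, where 2.74% of all genes were lower. BCL2L1 differed by 0.05 (95% interval -0.68 to 0.77) and HSP90AB1 by -0.09 (95% interval -0.66 to 0.47). AREG, a ligand of the EGF receptor, stood at 1776 in Ctrl, 2984 with SAHA and 1548 with compound 1, a difference of 0.94 (95% interval -1.13 to 3.02), too wide an interval to place it. The marker lists of the line itself and of endothelial and fibroblast cells had 0 called members of 11, 7 and 5 measured. The test without Ctrl called 1 marker of the line and 1 endothelial marker higher, where 3% of all genes were higher.

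**Figure D5:**
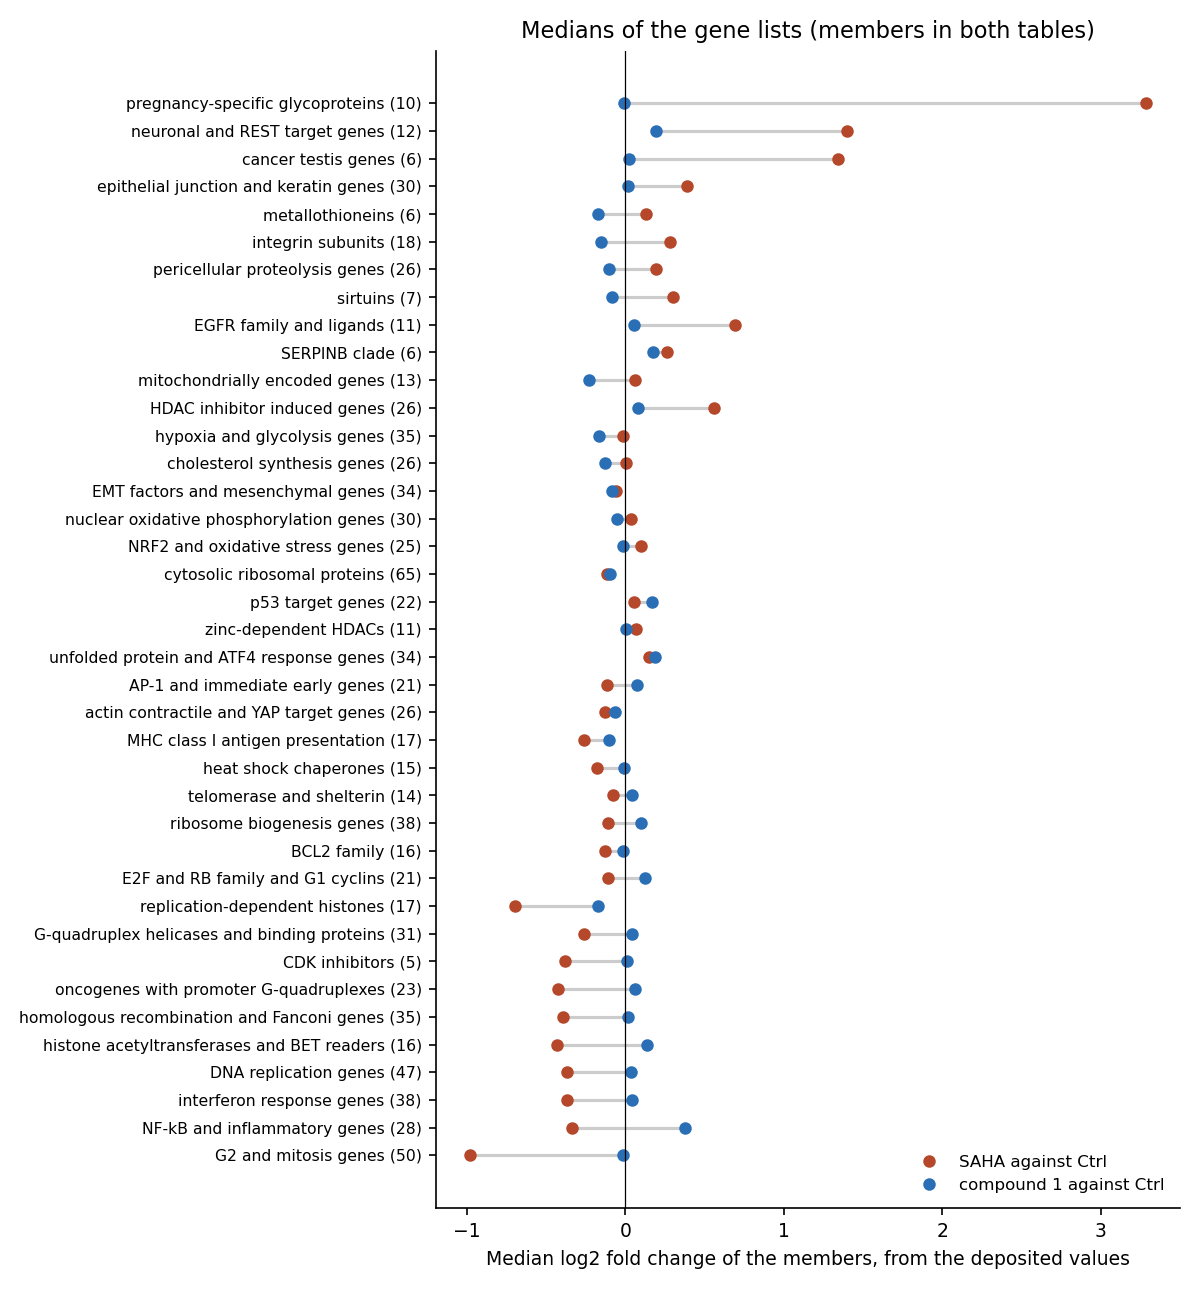
Median log2 fold change against Ctrl over the members of each gene list in both tables (number of members in parentheses), with SAHA (red) and compound 1 (blue), joined by a line and ordered by the median difference. The pregnancy-specific glycoproteins lie farthest apart (3.28 against -0.01), and the G2 and mitosis genes at the other end (-0.98 against -0.01).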

How the data were processed

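Total RNA of 12 libraries in 4 groups was sequenced; the 2 comparison tables used here rest on 9 libraries, 3 each of Ctrl, SAHA and compound 1. For each gene these deposited tables hold, per the file headers, the mean normalized count (a signal at or above 0), the log2 fold change against Ctrl and its standard error. They also hold, as the authors' DESeq2 test gave them, a Wald statistic (the score) and the raw and adjusted p-value. Cutadapt, DESeq2 and the build GRCh38 (hg38) are named in the submitters' processing notes. Aligner, counter and use of strand: not given in the sources used here. The tables have 0 columns of values per library, so depth per library is unknown.

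Group levels were computed for equal groups from the deposited mean count and fold change. Compound 1 levels were scaled by the median ratio of the Ctrl levels in the 2 tables. Differences, their z tests and Benjamini-Hochberg adjustment over all 18514 genes were computed in Python 3.11.15 with pandas 2.3.3, scipy 1.17.1 and statsmodels 0.14.6. The main test and that with an error correlation of 0.5 were run on data simulated from the deposited standard errors. Such data cannot show if those standard errors fit the libraries, and the test without Ctrl was not run on them. Intervals are 95% and cover the deposited standard errors only. They include the error of the shared Ctrl libraries, which cancels from the difference, and so are wide. At mean levels of at least 50 the median standard error of a difference was 0.44, and 0.31 without Ctrl. The test without Ctrl takes each gene's dispersion from its deposited standard errors, which also cover the Ctrl libraries. It assumes the same dispersion in Ctrl and treated libraries of a comparison, and library scaling near 1. Alternatives were an error correlation of 0.5, the test without Ctrl, centring, division by the statistic's own spread, an adjusted p under 0.01, a difference of at least 1, mean levels of at least 10 and 50, and removal of lowess trends (share 0.3) on level or GC content.

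Genes named are the 12 highest and 12 lowest statistics among called genes with a mean level of at least 50, up to 3 called members per list in each direction, up to 2 of the most abundant members of a list with none, and 6 genes named in any case (MYC, BCL2, KIT, VEGFA, TERT, CDKN1A). Clone-type, LINC, antisense, pseudogene and small RNA names were left out, and results of some genes of this rule are not reported here. Genes outside this rule were chosen after their values were seen: those added by the test without Ctrl, the other PSG members, and IL6, IL1A, PTGS2, PLK1 and CCNB1. The members and all 45 gene lists were chosen with earlier results of these data known. Positions, GC content and length come from GENCODE 29, which matched 98.3% of the genes. Promoter windows are RefSeq's, matched by symbol for 11668 genes. Gapped alignment used Biopython 1.88 (match 1, mismatch -1, gap opening -3, extension -0.5). The deposited G4-related lists give gene names, of which only the names were used.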

Additional observations from a re-analysis of the deposited data

How the results depend on the processing

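The counts depended mainly on how the shared Ctrl libraries were treated. With an error correlation of 0.5 between the fold changes 488 genes were higher with SAHA and 499 lower, and with the test without Ctrl 555 and 508. All 197 genes of the main test were called in both. At an adjusted p under 0.01 there were 54 higher and 33 lower. The other alternatives gave 91 to 149 higher and 67 to 129 lower, each within 1.5 times the main count; 169 of the 197 genes were still called after removal of the trend on level and 180 after removal of that on GC content. The share of called genes that were higher ran from 49.4% to 62.8%, against 54.8% in the main test. No called gene named here changed sign in these alternatives. Among the lists, medians of the ribosomal protein, NRF2, mesenchymal, SERPINB, actin, AP-1, endothelial, haematopoietic and fibroblast lists crossed 0 in at least 1 alternative. No paired analysis was possible because the tables hold no values per library, and for the same reason no library could be left out in turn. Whether 1 library sets a difference was therefore not tested. In the compound 1 table the statistic over genes with a mean level of at least 50 had a standard deviation of 0.52; that in the SAHA table was 1.65. At such levels the median standard error of a difference was 0.44, and 0.31 without Ctrl; the smallest difference called was -1.05 among lower and 1.30 among higher genes.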

Other observations

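The genes of this and the next paragraph were singled out after their values were seen, and no gene group is claimed from them. HSD11B1, which converts cortisone to cortisol, stood at 17.3 in Ctrl, 265 with SAHA and 27.3 with compound 1, a difference of 3.28 (95% interval 1.94 to 4.61). HSD17B2, which inactivates oestradiol, stood at 10.5, 89.3 and 6.46 in the same order, CYP24A1, which breaks down vitamin D, at 53.4, 219 and 47.7, CYP1A1 at 272, 1164 and 266 and SRD5A3 at 76.2, 256 and 75.6, all higher with SAHA than with compound 1. DHRS3, which reduces retinal, was lower, at 274, 48.0 and 236.

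HMGN2, a nucleosome-binding protein, stood at 4658 in Ctrl, 1703 with SAHA and 4586 with compound 1, a difference of -1.43 (95% interval -2.06 to -0.80), and was lower with SAHA. HMGB2 stood at 2577, 987 and 2605 in the same order, the remodeller gene CHD3 at 2554, 1066 and 2508, the histone demethylase gene PHF2 at 822, 290.2 and 866, and JADE2 and KANSL3, subunits of acetyltransferase complexes, at 1646, 618 and 1683 and 1223, 569 and 1253. The cytosolic DNA sensor gene CGAS, at 717, 379 and 859.8, and the adaptor gene NMI, at 59.3, 10.1 and 71.5, were lower as well. IGFBP3, an IGF-binding protein, stood at 887 in Ctrl, 3273 with SAHA and 879.9 with compound 1, a difference of 1.89 (95% interval 1.14 to 2.65), the chemokine receptor gene CXCR4 at 92.0, 296 and 91.5 in the same order and the cytokine genes TNFSF15 and IL18 at 123, 1159 and 188 and 164, 538 and 168, all higher with SAHA.

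The authors deposited lists of G4-related genes, which they sorted by the change with each compound, so the values of their members are a description. Of the SAHA up list 638 names were in both tables, of which 44 were called higher and 1 lower. Of 398 names of the SAHA down list 0 were called higher and 50 lower. Over all genes 0.583% were higher and 0.481% lower, but these lists were sorted by the change with SAHA itself. The lower gene of the up list was PRDM11, at 154 in Ctrl, 43.6 with SAHA and 153 with compound 1, which stands in the down list too and is counted in both. The compound 1 lists had 4 and 10 names in both tables, of which 0 were called. Checked against the deposited tables, 535 of 644 names of the SAHA up list had a change of at least 2-fold in the listed direction with an unadjusted p under 0.05, and 53 had the opposite sign. For the SAHA down list it was 292 of 398, with 55 of the opposite sign.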
